A study of Saccharomyces cerevisiae with 4 samples.

Results

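Chitin of the yeast cell wall is built from UDP-N-acetylglucosamine, and 10 genes of its supply and of its attachment to glucan were followed here, out of 5656 genes measured. They were chosen by name and function, and for each the brightest probe set that names 1 gene was read on all arrays. All 10 were found by symbol, with *QRI1* also known as *UAP1* and *UTR2* as *CRH2*. The mutant MEY12A is the haploid *MAT*α strain SEY6210 with *CCW12*, the gene of an abundant wall mannoprotein, disrupted by *URA3*, and was set against SEY6210 itself, called wild type. Both strains therefore share the other alleles of SEY6210, which are *GAL*, a *suc2* deletion and marker alleles of *LYS2*, *TRP1*, *HIS3*, *LEU2* and *URA3*, while MEY12A alone carries the *URA3* copy of the disruption. Cells grew in YPD with added adenine to an OD600 of 1. For each of 2 arrays per strain (Affymetrix Yeast Genome S98, 1 colour), 5 µg of total RNA pooled from 3 preparations was used. The mutant is a single strain whose source label gives SEY6219 as its parent, and for wild type replicate 2 one label names SEY6211, although its title and strain label name SEY6210. The authors list SEY6211 as *MAT***a**. On that array the signals of 4 marker genes of *MAT*α cells summed to 31515, and those of 6 genes of *MAT***a** cells to 323.5.

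The hexosamine route starts from fructose-6-phosphate and glutamine and ends, after 4 enzymes, at UDP-N-acetylglucosamine. Chitin synthases polymerize this sugar nucleotide at the plasma membrane, and the transglycosylases of the CRH family then join chitin chains to β-1,6- and β-1,3-glucan. Chitin deposition is known to increase in cells with a weakened wall. Chitin deacetylases turn chitin into the chitosan of the ascospore wall.

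Signals are linear intensities without a unit. The log2 fold changes are *ccw12*Δ over wild type, tested with limma over the 4532 genes whose mean log2 signal reached the filter level of 6.11 (a signal of 69.0). The deleted gene gave signals of 4260 and 3919 on *ccw12*Δ arrays, against 24314 and 24118 on wild-type arrays (*CCW12*, log2 fold change -2.57, SE 0.18, limma adjusted p = 0.00104), and *URA3* gave 59.5 and 54.2 on *ccw12*Δ arrays, against 3.9 and 6.7 on wild-type arrays. The median log2 fold change of all genes tested was 0.18, and it was 0.94 for 331 genes of chromosome II, 0.89 for 151 genes of chromosome IX and 1.06 for 301 genes of chromosome X. The ratio of 3' to 5' signal of *ACT1*, a sign of RNA quality, was 2.99 for wild type replicate 1, whereas the other 3 arrays gave 1.38 to 1.49. For the further controls *SPT15* and *SRB4* it was 7.12 and 9.82 on that array, against 2.87 to 3.69 and 2.20 to 3.52. Of 14 genes that mark sporulating cells, 13 lay under the filter level on every array, and of 6 genes of *MAT***a** cells 4 did. The 4 markers of *MAT*α cells all exceeded it, with summed signals of 19359 and 19226 on *ccw12*Δ arrays, against 32818 and 31515 on wild-type arrays. All 4 were lower on both *ccw12*Δ arrays, beside 15.0% of all genes measured. At an unadjusted p under 0.05 from limma 3 of the 4 passed, beside 22.0% of all genes tested. After adjustment only the pheromone gene *MF(ALPHA)2* did, with a fall (log2 fold change -1.46, limma adjusted p = 0.0179). In the other 2 lists 1 gene each was bright enough to be tested, and neither passed. Summed over its list, the signal of the *MAT***a** genes was 487.2 and 395.2 on *ccw12*Δ arrays, against 348.1 and 323.5 on wild-type arrays, and both *ccw12*Δ signals were the higher ones for 4 of the 6 genes, beside 36.2% of all 5656 genes measured. *BAR1*, the gene of the pheromone protease on chromosome IX, gave 40.3 and 36.2 on *ccw12*Δ arrays, against 1.7 and 1.2 on wild-type arrays, and passed where no filter was set (limma adjusted p = 0.0468). The sporulation genes summed to 510.3 and 410.5 on *ccw12*Δ arrays, against 308.1 and 326.6 on wild-type arrays, with 5 of the 14 higher and 3 lower on both *ccw12*Δ arrays, beside 36.2% and 15.0% of all genes measured. The brightest of them, *IME1* on chromosome X, gave 229.8 and 168.1 on *ccw12*Δ arrays, against 80.9 and 98.3 on wild-type arrays. Its log2 fold change was 1.14, and 0.07 after the median deviation of its chromosome was subtracted on each array. *BAR1* and *IME1* were named after their values were seen, and the part of these cell type markers in the results was not tested. An array of a culture does not separate a change per cell from a change in the share of cells that express a gene.

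Of the 10 genes, *RCR1* and *CSI2* rose in *ccw12*Δ at an adjusted p under 0.05, none fell, 7 did not pass and 1, *CDA1*, was too dim to be tested. Over all genes tested 5.30% were called higher and 0.596% lower, 5.89% in all. The same 2 genes were the only ones of the group at least 2-fold apart with all 4 ratios in 1 direction, which held for 10.4% of all genes upward and 2.03% downward. At an unadjusted p under 0.05 from limma, *CRH1* and *UTR2* joined them, 4 of 9, beside 22.0% of all genes. The 2 genes that rose act on chitin deposition and on chitin synthase III. No gene of the hexosamine route and neither of the crosslinking genes passed. *RCR1* lies on chromosome II, and the median log2 fold change of the 8 tested genes of the group outside chromosomes II, IX and X was 0.28, beside 0.09 for all genes tested outside these chromosomes. The signals on both *ccw12*Δ arrays exceeded both wild-type signals for 6 of the 9 tested genes and lay below both for 2, and over all genes tested this was so for 37.8% and 15.5%.

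**Figure D1:**
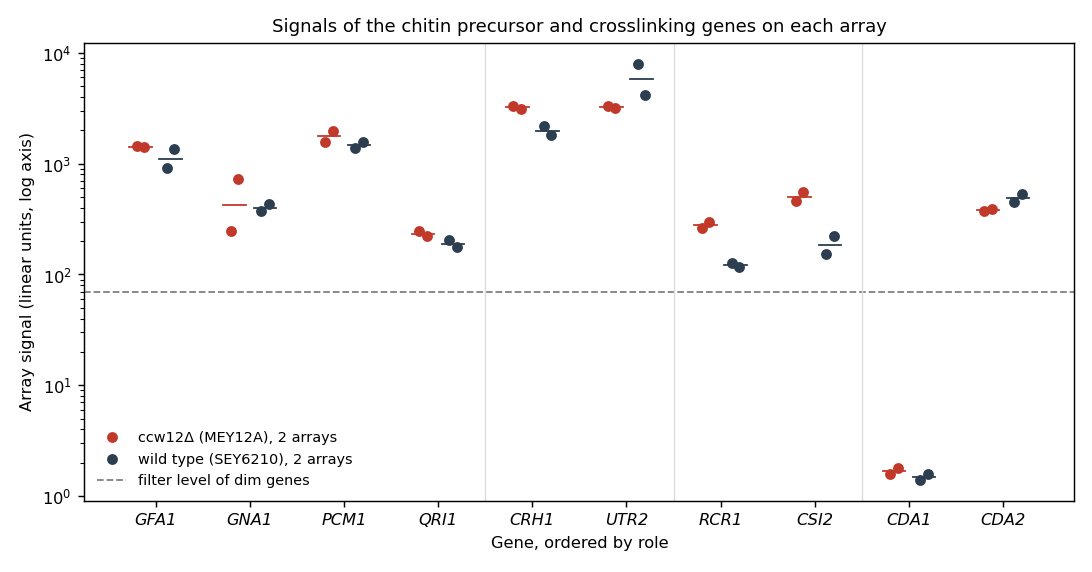
Signal of each gene on each array (log axis, linear signal units), with *ccw12*Δ on the left and wild type on the right of each pair. Points are arrays, short bars geometric means of 2 arrays, and the dashed line is the filter level of 69.0. *RCR1*, *CSI2* and *CRH1* sit higher in *ccw12*Δ, *UTR2* sits lower with its wild-type points far apart, and *CDA1* lies under 2 on all 4 arrays.

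*CSI2*, coding for a protein assigned to chitin synthase III, had the largest fitted difference of the group with all 4 arrays, though not without wild type replicate 1, where its log2 fold change was 1.18 and that of *RCR1* 1.26. Its signals were 456.6 and 549 on *ccw12*Δ arrays, against 154.5 and 221.2 on wild-type arrays. Both mutant signals lay above both wild-type signals, at 503 ± 65.3 against 188 ± 47.2 (SD, n = 2 arrays each). The log2 fold change was 1.44 (standard error, SE, 0.30, limma adjusted p = 0.0337), a 2.71-fold rise with a 95% interval from 1.68 to 4.37-fold, and the 4 ratios of mutant to wild-type arrays ranged from 2.06 to 3.55. Of the 414 genes tested on chromosome XV, 1 had a larger log2 fold change, and of all 4532 genes 151 did. The 10 tested genes next to *CSI2* in chromosomal order had log2 fold changes between -0.17 and 0.59, and none of them passed the test. The call of *CSI2* was lost with quantile-normalized or median-centred arrays, with arrays centred by chromosome, without the filter on dim genes and without either mutant array, with adjusted p-values up to 0.178 from limma. Over these settings its log2 fold change stayed between 1.19 and 1.57.

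*RCR1* encodes a membrane protein of the endoplasmic reticulum that acts on chitin deposition and is named for resistance to Congo red. Its signals were 261.9 and 294.6 on *ccw12*Δ arrays, against 125.7 and 116.3 on wild-type arrays, and the groups did not overlap. Their means were 278 ± 23.1 and 121 ± 6.65 (SD, n = 2 arrays each), with a log2 fold change of 1.20 (SE 0.28, limma adjusted p = 0.0429), or 2.30-fold with a 95% interval from 1.49 to 3.55-fold. The replicate arrays differed only 1.12-fold within *ccw12*Δ and 1.08-fold within the wild type. The call of *RCR1* was lost under the same alternatives as that of *CSI2*, with adjusted p-values up to 0.671 from limma.

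The rise of *RCR1* was of the size seen around it. Of the 331 genes tested on chromosome II, 100 had a larger log2 fold change than *RCR1*, and 22.1% of the chromosome's genes were called higher, beside 1.09% of genes on chromosomes other than II, IX and X. Its 10 nearest tested genes all had log2 fold changes above 0, with a median of 1.20, and 4 of them passed the test. *COQ1*, coding for an enzyme of coenzyme Q synthesis, and *DSF2*, each the second tested gene from *RCR1*, had log2 fold changes of 1.32 and 1.33 (SE 0.28 and 0.29, limma adjusted p = 0.0348 and 0.0362). *GPI18*, coding for a mannosyltransferase of GPI anchor synthesis, and *UGA2*, coding for succinate semialdehyde dehydrogenase, are the tested genes next to it. They had 0.37 and 1.38 (SE 0.29 and 0.36, limma adjusted p = 0.50 and 0.0570). When the median deviation of its chromosome was subtracted on each array, the log2 fold change of *RCR1* was 0.27 (SE 0.27, limma adjusted p = 0.671), whereas that of *CSI2* was 1.34 (SE 0.27, limma adjusted p = 0.112). The part of the chromosome-wide shift in the signal of *RCR1* was not tested further.

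**Figure D2:**
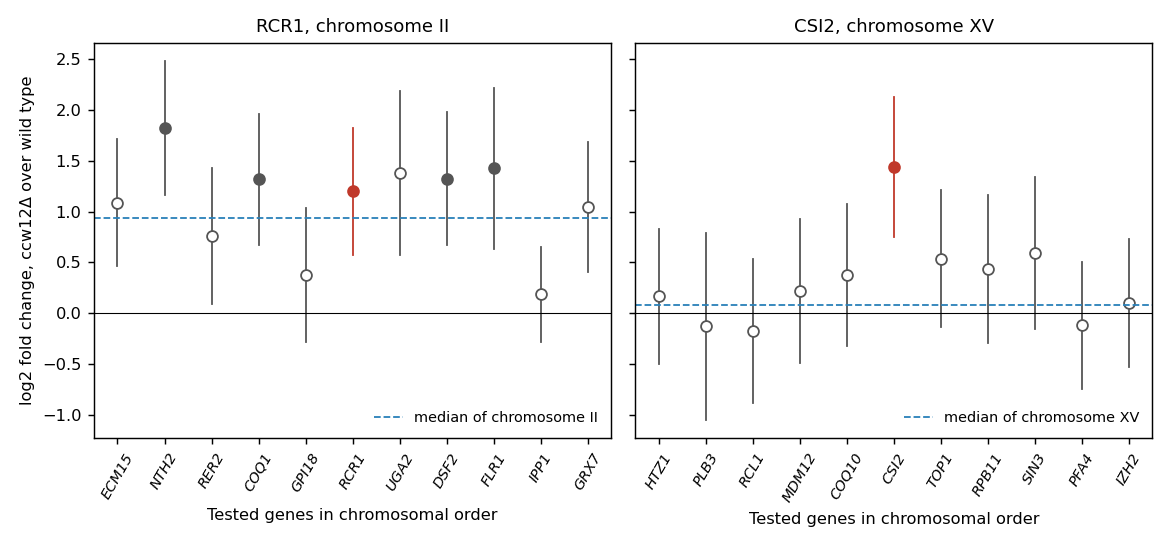
log2 fold change (*ccw12*Δ over wild type) of *RCR1* and *CSI2* (red) and of the 5 tested genes on each side of them in chromosomal order (grey), with 95% intervals. Filled points passed the test. All 10 neighbours of *RCR1* lie above 0, around the chromosome II median of 0.94 (dashed), whereas those of *CSI2* lie between -0.17 and 0.59.

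The crosslinking pair had log2 fold changes of opposite sign, and neither gene passed the test. *CRH1* and *UTR2* encode GPI-anchored transglycosylases of the wall that transfer chitin onto glucan. *CRH1* gave signals of 3341 and 3139 on *ccw12*Δ arrays, against 2176 and 1804 on wild-type arrays. Both mutant arrays were above both wild-type arrays, with a log2 fold change of 0.71 (SE 0.25, limma adjusted p = 0.142), or 1.63-fold with a 95% interval from 1.10 to 2.43-fold. Of the 404 genes tested on chromosome VII, 21 had a larger one. Without wild type replicate 1, the array with the high 3' to 5' ratio, the log2 fold change of *CRH1* was 0.84. It was 0.57 without wild type replicate 2, and 0.66 and 0.75 without *ccw12*Δ replicate 1 and replicate 2. Each of these fits leaves 1 strain with 1 array.

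*UTR2* gave signals of 3314 and 3159 on *ccw12*Δ arrays, against 8000 and 4175 on wild-type arrays. Both mutant signals lay below both wild-type signals, while the wild-type arrays differed 1.92-fold from each other and the mutant arrays 1.05-fold. The log2 fold change was -0.84 (SE 0.31, limma adjusted p = 0.161). It was 0.560-fold, with a 95% interval from 0.342 to 0.917-fold. Of all genes tested, 154 had a lower log2 fold change. The size of this difference rested on wild type replicate 1. It was -0.37 on the log2 scale without that array and -1.31 without wild type replicate 2.

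The signal of *CRH1* divided by that of *UTR2* on the same array does not depend on a scaling factor common to the whole array. This quotient was 1.01 and 0.994 on *ccw12*Δ arrays, against 0.272 and 0.432 on wild-type arrays. Because probe sets differ in their response, the quotient says nothing of the ratio of the transcripts. That the strains do not overlap in it follows from the signals of the 2 genes above and adds no support to them. The pair was singled out after its values were seen.

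**Figure D3:**
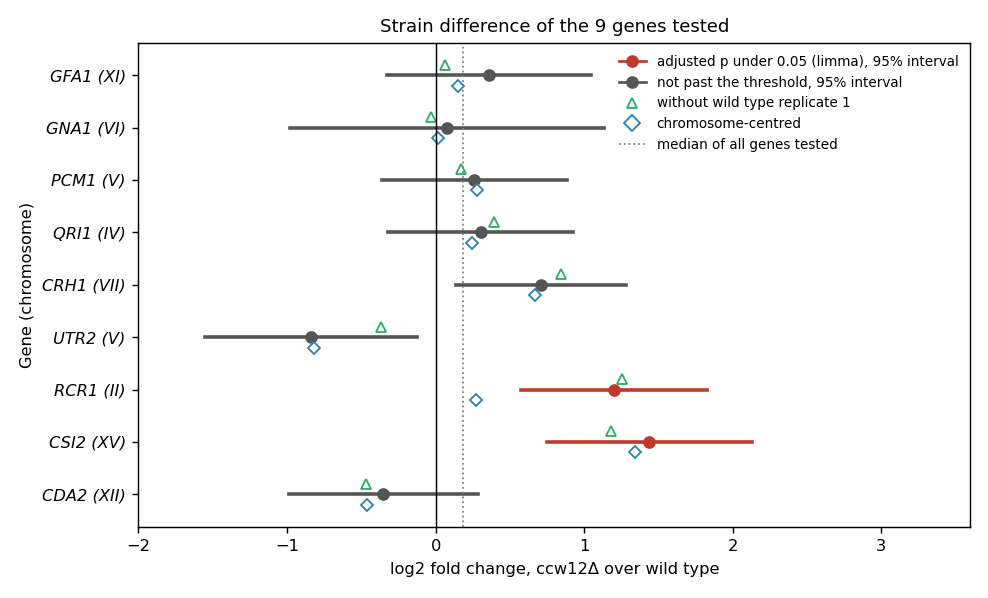
log2 fold change (*ccw12*Δ over wild type) of the 9 genes tested, with the 95% interval from limma. Triangles give the value without wild type replicate 1, diamonds the value with arrays centred by chromosome, and the dotted line the median of all genes tested, 0.18. Centring by chromosome takes *RCR1* down to 0.27 and leaves *CSI2* at 1.34, and *UTR2* is nearer 0, at -0.37, without wild type replicate 1.

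The 4 genes of the hexosamine route had log2 fold changes from 0.08 (*GNA1*) to 0.36 (*GFA1*), around the 0.18 of all genes tested, and none passed the test, at the adjusted threshold or at an unadjusted p under 0.05 from limma. With median-centred arrays they ranged from -0.17 (*GNA1*) to 0.11 (*GFA1*), with 0.02 for *PCM1* and 0.06 for *QRI1*, and *QRI1* had 0.07 after quantile normalization. *GFA1* encodes the glutamine-fructose-6-phosphate amidotransferase that opens the route and sets its flux. Its signals were 1447 and 1402 on *ccw12*Δ arrays, against 905 and 1361 on wild-type arrays. The mutant signals were above both wild-type signals, but they exceeded that of wild type replicate 2 by as little as 1.03-fold, and the wild-type arrays differed 1.50-fold. The log2 fold change was 0.36 (SE 0.30, limma adjusted p = 0.533), 1.28-fold with a 95% interval from 0.796 to 2.07-fold. Without wild type replicate 1 it was 0.07.

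*GNA1*, coding for glucosamine-6-phosphate N-acetyltransferase, gave signals of 246.9 and 725.8 on *ccw12*Δ arrays, against 372.2 and 432.5 on wild-type arrays. The mutant arrays differed 2.94-fold from each other and enclosed both wild-type signals, so that the log2 fold change of 0.08 (SE 0.46, limma adjusted p = 0.941) has a 95% interval from 0.507 to 2.20-fold. Its sign changed with quantile-normalized and with median-centred arrays.

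*PCM1*, the phosphoacetylglucosamine mutase gene, gave signals of 1580 and 1963 on *ccw12*Δ arrays, against 1381 and 1565 on wild-type arrays. *QRI1*, the gene of the UDP-N-acetylglucosamine pyrophosphorylase that ends the route, had 246.7 and 222 on *ccw12*Δ arrays, against 202.5 and 177.9 on wild-type arrays. In both genes the mutant signals were the higher ones, by 1.20-fold (95% interval from 0.777 to 1.85-fold) for *PCM1* and 1.23-fold (95% interval from 0.800 to 1.90-fold) for *QRI1*. Their adjusted p-values from limma were 0.628 and 0.567.

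The chitin deacetylase genes *CDA1* and *CDA2* are known for expression during spore formation. *CDA1* gave signals of 1.6 and 1.8 on *ccw12*Δ arrays, against 1.4 and 1.6 on wild-type arrays, all far under the filter level. *CDA2* has 3 probe sets, which disagreed. The brightest gave 373.9 and 393.2 on *ccw12*Δ arrays, against 451.7 and 529.7 on wild-type arrays, a log2 fold change of -0.35 (SE 0.28, limma adjusted p = 0.510). The others lay between 2.5 and 17.4 on all 4 arrays. The sources used here do not say which of the 3 follows the *CDA2* transcript, and the level of this gene remains undetermined.

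**Figure D4:**
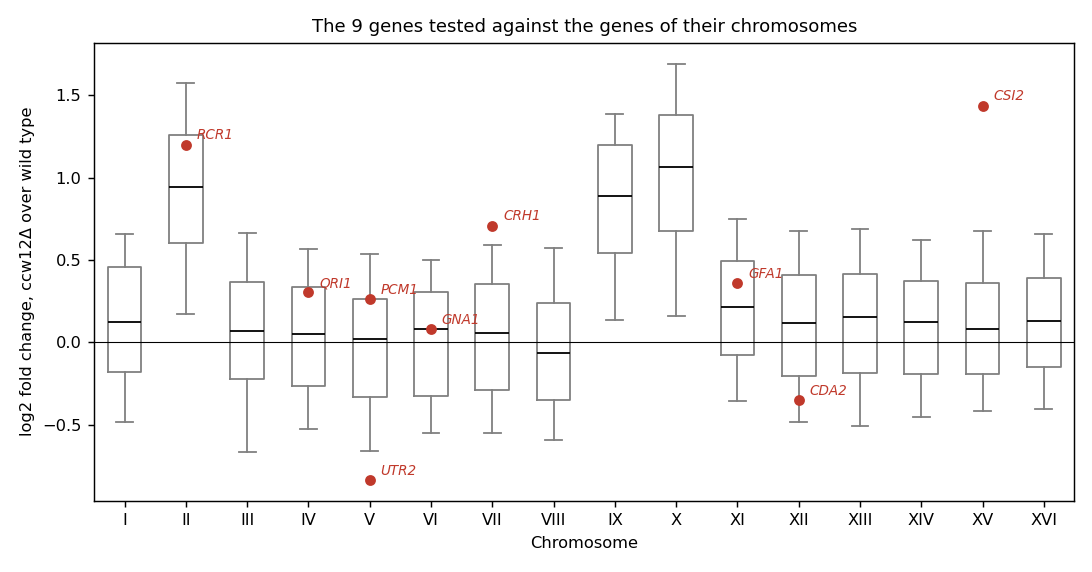
log2 fold change (*ccw12*Δ over wild type) of the genes tested on each nuclear chromosome, as boxes (quartiles and median) with whiskers at the 10th and 90th percentiles, and of the 9 genes of the group (red). *RCR1* lies inside the box of chromosome II, while *CSI2*, *CRH1* and *UTR2* lie beyond the whiskers of their chromosomes.

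The pathway around these genes showed few calls. The 12 genes of the chitin synthases and of Chs3 export had a median log2 fold change of 0.18, the same as all genes tested, and none passed the test. At an unadjusted p under 0.05 from limma 3 of the 12 did, beside 22.0% of all genes tested. These were *CHS2*, *CHS3* and *CHS6*, named here after their values were seen, and all 3 lie on chromosomes II and X. *CHS6* passed with an offset added to the signals (limma adjusted p = 0.0496), where 269 of all genes were called. With the replicate number as a block all 3 passed (limma adjusted p up to 0.0188), where 625 of all genes were called. *CHS3*, coding for the synthase of most wall chitin, gave signals of 2950 and 3063 on *ccw12*Δ arrays, against 803 and 1769 on wild-type arrays. Its log2 fold change was 1.33 (SE 0.37, limma adjusted p = 0.0734), and 0.41 with arrays centred by chromosome. Without the 4 genes on chromosomes II, IX and X the median of this list was 0.03.

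Genes that use UDP-N-acetylglucosamine for N-glycans and GPI anchors had a median of -0.06 on the log2 scale over 7 tested genes, and none passed. *ALG7* and *ALG14*, which act at the first steps of N-glycan assembly, had 0.75 and 0.80 on the log2 scale (SE 0.28 and 0.28, limma adjusted p = 0.155 and 0.141), and both lie on chromosome II. They were the only 2 of the 7 with an unadjusted p under 0.05 from limma, beside 22.0% of all genes tested. Of 7 genes that supply hexose phosphate and glutamine none passed, with a median of -0.18. Beside the same 22.0%, 1 of the 7 had an unadjusted p under 0.05 from limma. That gene, *HXK1*, coding for a hexokinase, gave signals of 437 and 731 on *ccw12*Δ arrays, against 994 and 1336 on wild-type arrays (log2 fold change -1.03, SE 0.34, limma adjusted p = 0.121). *GLN1*, the glutamine synthetase gene, had 0.10 (SE 0.28).

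Among the chitinases and further homologs, *RCR2*, the paralog of *RCR1* on chromosome IV, gave signals of 234.1 and 278.7 on *ccw12*Δ arrays, against 133.3 and 170 on wild-type arrays. Its log2 fold change of 0.76 (SE 0.29, limma adjusted p = 0.164) passed only before adjustment, and was 0.70 with arrays centred by chromosome. *CTS1*, coding for the chitinase of cell separation, had -0.07 (SE 0.22). *CRR1*, a sporulation homolog of *CRH1*, and *CTS2* were too dim to be tested.

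The list of the cell wall integrity pathway and its output held 4 calls. Of its 12 tested genes 4 rose, beside the 5.30% of all genes, and none fell, and the median log2 fold change was 0.60. *NCW2* and *YPS3*, coding for a GPI-anchored wall protein and an aspartic protease, had 1.69 and 1.65 (SE 0.29 and 0.28, limma adjusted p = 0.0222 and 0.0226). Both lie on chromosome XII, and with arrays centred by chromosome *NCW2* passed and *YPS3* did not (log2 fold change 1.59 and 1.54, limma adjusted p = 0.0479 and 0.0516). *PRM5*, on chromosome IX, and *PIR3*, on chromosome XI, were the other 2 that rose, with 1.56 and 1.61 (SE 0.28 and 0.36, limma adjusted p = 0.0246 and 0.0391). With arrays centred by chromosome they had 0.69 and 1.40 and did not pass (limma adjusted p = 0.344 and 0.165). None of the 4 passed with median-centred arrays (limma adjusted p from 0.0581 to 0.0972) or without the filter (0.0511 to 0.0880). After quantile normalization *NCW2*, *YPS3* and *PRM5* passed (limma adjusted p = 0.0359, 0.0373 and 0.0369) and *PIR3* did not (0.0833). The list was written with earlier results of these arrays known, and its count is no independent evidence of a direction. *CSI2* had a log2 fold change of the same order as these 4 genes, and *CRH1* and the hexosamine genes had lower ones than these 4. The 8 tested genes of the list that were not called had log2 fold changes from 0.14 to 0.89. *CRH1*, *GFA1*, *PCM1* and *QRI1* lay within that range, and *GNA1*, at 0.08, lay below it. The difference between the group and this list was not tested.

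**Figure D5:**
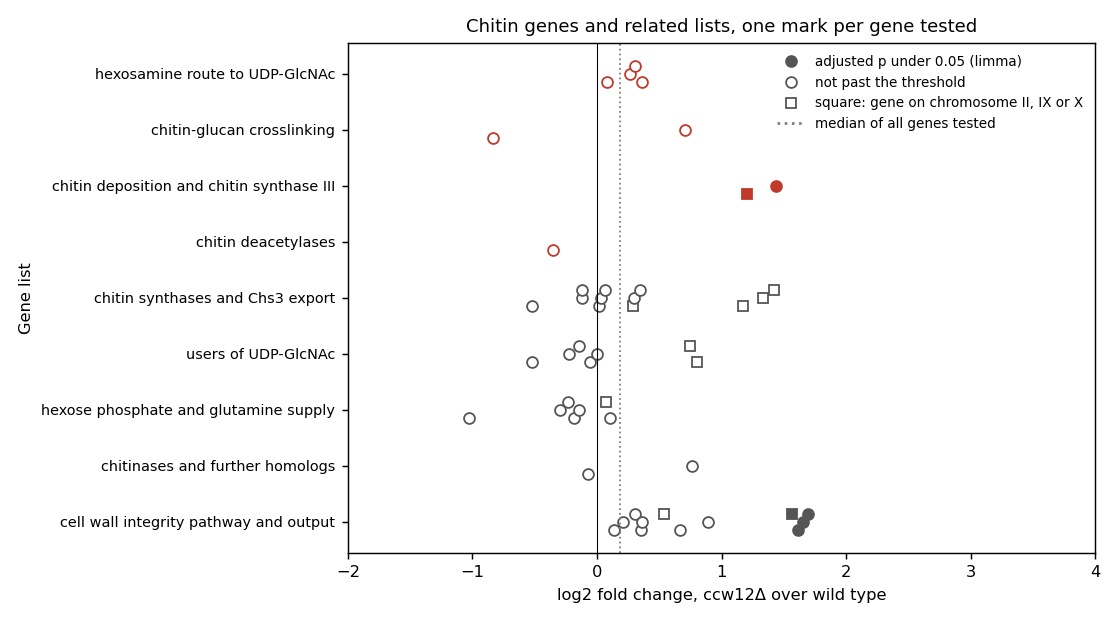
log2 fold change (*ccw12*Δ over wild type) of each gene tested in the 4 role groups (red) and in 5 related lists (grey). Filled marks passed the test, squares are genes on chromosomes II, IX or X, and the dotted line is the median of all genes tested, 0.18. The values above 0.5 in the chitin synthase list and among the users of UDP-GlcNAc are all squares.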

How the data were processed

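Total RNA of MEY12A (*ccw12*Δ) and SEY6210 (wild type) was measured on 2 arrays each. The authors scanned the arrays and made signals with GCOS (MAS5 per the processing notes; its version and scaling target are not known here). The deposited intensity values, 1 linear signal for each of 9335 probe sets and scaled per array, were used as they stand. The median signals were 141.2 and 144.4 for *ccw12*Δ, against 122.4 and 117.9 for the wild type, and 19 zeros were raised to a floor of 0.1 before log2.

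By the platform annotation 6504 probe sets match a single gene, and names and chromosomes came from the RefSeq table of assembly R64, in which all 5656 genes matched. The probe set with the highest mean log2 signal stood for a gene. Genes under the 25th percentile of the mean log2 signal of these probe sets were left out. limma 3.58.1 in R 4.3.3 (lmFit, eBayes with trend, Benjamini-Hochberg, threshold 0.05) compared the strains. Its p-values measure the spread between RNA pools, moderated by that of other genes. The calculation was checked on simulated signals without a chromosome-wide shift. There it called 12% of genes set 1.5-fold apart, 50.7% set 2-fold apart, 100% set 4-fold apart and 0.115% of unchanged genes. A gene that did not pass may therefore still differ by such smaller folds. The number of arrays limits the precision.

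Every gene of the group is named, as are *CCW12*, *URA3* and the 2 nearest tested genes on each side of *RCR1*. For each related list the rule was the 2 largest rises and 2 largest falls among the genes that passed. *PRM5*, *PIR3*, *ALG7*, *ALG14*, *HXK1*, *GLN1*, *RCR2*, *CTS1*, *CRR1* and *CTS2* are named outside this rule. So are the genes marked in the text as named after their values were seen. The genes, lists and this rule were chosen with earlier results of these arrays known. Alternatives were arrays centred on their medians or by chromosome, quantile normalization, other filters, an offset of 7.3, the mean over probe sets, eBayes without trend, a replicate block, each array left out, and a fold rule (all 4 ratios in 1 direction, mean at least 2-fold). Sequences were not used here.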

Additional observations from a re-analysis of the deposited data

How the results depend on the processing

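Over all genes, 267 were called (240 higher, 27 lower). The count was 116 after quantile normalization (94 and 22), 64 with median-centred arrays (43 and 21), 27 with arrays centred by chromosome (11 and 16), 39 without the filter, 564 by the fold rule, and 76 to 1433 with 1 array left out (147 without *ccw12*Δ replicate 1, 76 without *ccw12*Δ replicate 2, 722 without wild type replicate 1 and 1433 without wild type replicate 2). The median of all genes, 0.18 on the log2 scale, was 0.04, -0.06 and 0.00 under the first 3 of these settings. Of the 10 genes of the group 2 were called. This was 0 under quantile normalization, both centrings and no filter, 1 with a filter at the 50th percentile (*RCR1* was left out there), and 0 to 3 with 1 array left out (0 without either *ccw12*Δ array). In the same order as the first 4 settings, the log2 fold change of *RCR1* was 0.96, 0.96, 0.27 and 1.20, with adjusted p-values of 0.0911, 0.111, 0.671 and 0.0830 from limma, and that of *CSI2* 1.23, 1.19, 1.34 and 1.44, with 0.0699, 0.0917, 0.112 and 0.0753. Without the filter 5656 genes are tested, and otherwise the cause was not tested. *GNA1* changed sign with quantile normalization (-0.10) and median centring (-0.17). With 1 array left out, the log2 fold change ranged from 1.12 to 1.28 for *RCR1*, 1.18 to 1.70 for *CSI2*, 0.57 to 0.84 for *CRH1*, -1.31 to -0.37 for *UTR2* and -0.70 to 0.86 for *GNA1*. The replicate spread then comes from 1 pair of arrays alone. *CDA2* was too dim for the mean over its probe sets to be tested. The deviations of same-numbered arrays from their group means had r = -0.14. With 2 arrays per strain, crossed numbers give 0.14 by construction, so this value cannot settle whether the arrays were paired. With the replicate number as a block 625 genes were called, among them *UTR2* at -0.84 (adjusted p = 0.0210 from limma), and 3 of the 10 genes in all. With the numbers crossed, added after seeing the data, 625 genes were called and 2 of the 10, *UTR2* not among them. *CHS2*, *CHS3* and *CHS6* were called under both blocks.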
